A study of Mus musculus with 12 samples.

Results

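The genes described here are 10 Sox transcription factors, Sox2, Sox4, Sox5, Sox6, Sox8, Sox9, Sox11, Sox12, Sox18 and Sox21, among the 34866 genes of the deposited expression table. They were chosen by name, from a list written with the values of these libraries in view, and each symbol matched a single Ensembl identifier. Their levels are therefore given as a description, and whether limma called them is given only as a count beside the share of all genes called, as no support. Adjusted p-values are given for Sirt3 and for genes around the members. Mouse embryonic fibroblasts (MEFs), immortalized and kept in culture, gave the RNA, with 3 libraries from each of 4 groups: male Sirt3 wild-type (WT), male Sirt3 knockout (KO), female WT and female KO. Sirt3 is a mitochondrial protein deacetylase, and the study asked how its loss acts on gene expression in each sex. The cells were isolated from single embryos of 13 days, WT ones of the 129S1/SvImJ strain and KO ones of a separate Sirt3 KO stock. In all 4 groups the cells carried the SV40 T-antigen that had been used to immortalize them, and RNA was taken from passage 6 cells 48 h after seeding, with no treatment. The number of lines per group is not stated, so the effects of genotype and of sex cannot be told apart from those of a line, and a p-value measures only the spread between these cultures.

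Sox proteins, like the testis-determining factor Sry, bind DNA through a high-mobility-group (HMG) box, a domain which enters the minor groove and bends the helix. They are sorted into groups by the likeness of this box, and members of a group often stand in for each other. In the embryo they set and hold cell identity: SoxB factors act in pluripotent and neural progenitor cells, SoxC factors in mesenchymal and neuronal progenitors, SoxD and SoxE factors together in cartilage, SoxE factors also in the neural crest and its glia, and SoxF factors in blood and lymph vessels. Embryonic fibroblasts descend from mesenchyme, the tissue in which several of these groups are active.

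All levels are in TPM, transcript abundances scaled for transcript length and to an equal total in each library, so that genes can be set beside each other. The read depth behind the TPM is unknown. The libraries were alike in general measures: between 12256 and 12637 genes reached 1 TPM in a library. Sirt3 itself was not lower in the libraries labelled KO, at 6.59, 7.17 and 9.07 TPM in male WT, 8.88, 10.9 and 11 TPM in male KO, 7.40, 7.60 and 8.69 TPM in female WT and 7.57, 9.06 and 8.19 TPM in female KO libraries. Its log2 difference was 0.39 in males (limma, adjusted p = 0.0981 after Benjamini-Hochberg adjustment) and 0.059 in females (adjusted p = 0.772, the same test). Whether an intact transcript was made cannot be read from a gene-level value, and KO below means a library labelled KO. Of 11 fibroblast markers, 10 (Col1a1, Pdgfra, Thy1 and Vim among them) had a mean of at least 1 TPM in every group. The sum of the 11 was higher in KO than in WT in both sexes. It ran from 9210 to 10330 TPM in male WT and from 11970 to 12700 in male KO libraries. In females it ran from 8081 to 8270 TPM in WT and from 10340 to 10670 in KO libraries. The markers did not all rise. Col1a1 went from a mean of 3184 to 4807 TPM in males and from 2127 to 3227 in females. Postn went from 123 to 555 TPM in males and from 145 to 639 in females. By limma Col3a1, Pdgfrb and Thy1 rose in both sexes as well. Vim and Fn1 were not called between KO and WT in either sex, nor were Col1a2, Pdgfra and Dcn in males. In such bulk samples fewer cells of a type and less RNA per cell cannot be told apart.

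The sequences just upstream of the RefSeq start sites are shown for Sox2, Sox21 and Sox5, the 3 members whose group means lay farthest apart, because their differences between groups are described below. Each is the 250 bases before the start, 5′ to 3′ on the strand of the gene, on GRCm38.p6: chr3:34649745-34649994 on the plus strand for Sox2, chr14:118237031-118237280 on the minus strand for Sox21 and chr6:143947107-143947356 on the minus strand for Sox5, the last a start inside the span that GENCODE gives the gene. Capitals mark the core letters to which Sox proteins are known to bind, ACAAT or ACAAAG, searched on both strands (ATTGT and CTTTGT on the other).
Sox2: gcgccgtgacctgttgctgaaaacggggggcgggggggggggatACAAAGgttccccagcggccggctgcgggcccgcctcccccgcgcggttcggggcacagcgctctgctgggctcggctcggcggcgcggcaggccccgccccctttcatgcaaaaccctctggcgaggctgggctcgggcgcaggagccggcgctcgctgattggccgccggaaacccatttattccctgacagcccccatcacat
Sox21: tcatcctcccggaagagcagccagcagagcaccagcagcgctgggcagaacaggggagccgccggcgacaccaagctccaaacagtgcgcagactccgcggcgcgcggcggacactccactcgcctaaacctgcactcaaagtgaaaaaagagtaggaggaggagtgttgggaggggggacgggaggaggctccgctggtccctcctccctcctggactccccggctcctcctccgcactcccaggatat
Sox5: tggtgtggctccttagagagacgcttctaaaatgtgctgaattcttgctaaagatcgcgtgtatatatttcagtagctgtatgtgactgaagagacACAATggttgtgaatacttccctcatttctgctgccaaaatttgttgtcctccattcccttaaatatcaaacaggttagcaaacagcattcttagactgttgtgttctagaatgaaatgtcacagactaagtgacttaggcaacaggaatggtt
The Sox2 stretch held 27 CpG dinucleotides and 72% G or C, and that of Sox21 17 CpG and 65.2%. The Sox5 stretch held 3 CpG and 39.6% G or C, against a median of 6 CpG and 52.4% over 32851 promoters of the same length. The ACAAAG in the Sox2 stretch is a letter match that 16.5% of all those promoters hold, and the ACAAT in that of Sox5 one that 27.7% hold. In the Sox21 stretch neither occurred. Of the 10 members 8 had an entry in the promoter table, all but Sox9 and Sox18.

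The SoxC gene Sox4 had the highest TPM of the 10 members in every library. Its group means ran from 104 ± 2.74 TPM in male WT to 153 ± 11.3 TPM in female WT (SD, n = 3 each), and Sox12 followed in every group with means between 25.4 and 30.6 TPM. The third place differed between groups: it was held by Sox2 in male WT, by Sox9 in male KO and by Sox11 in both female groups. Sox6 and Sox18 stayed under 1 TPM in all 12 libraries. The 20 Sox genes of the table summed to 172 ± 7.29 TPM in male WT, 178 ± 11.4 in male KO, 212.5 ± 12.7 in female WT and 183.5 ± 7.25 in female KO libraries (SD, n = 3 each). The SoxC genes held the bulk of that sum, from 79.7% ± 0.998 in male WT to 91.6% ± 0.762 in female WT libraries. The make-up of the remainder differed: Sox2 and Sox21 made 8.17% and 4.46% of the male WT sum and 0.657% and 0.0248% of the male KO sum. Sox5 and Sox6 together made 0.983% in male WT libraries and 4.53% in male KO ones, and Sox8 and Sox9 together 5.88% and 10.2%.

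**Figure D1:**
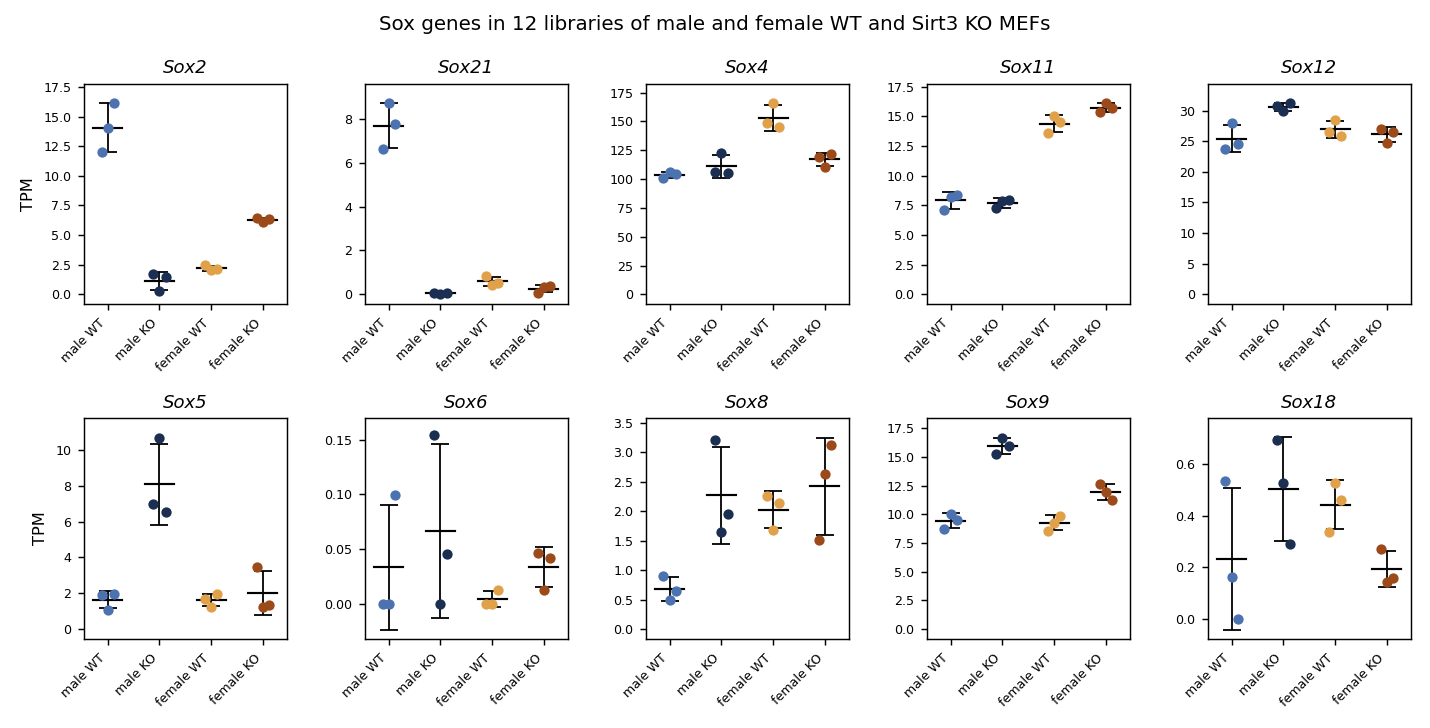
TPM of the 10 Sox genes (vertical axis, linear, a separate scale for each gene) in the 3 libraries of each of the 4 groups; points are libraries, the long bar is the group mean and the error bar the SD. Sox2 and Sox21 stand highest in male WT (means of 14.1 and 7.69 TPM), Sox5 and Sox9 in male KO (8.08 and 16.0 TPM), and Sox6 and Sox18 stay under 1 TPM.

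**Figure D2:**
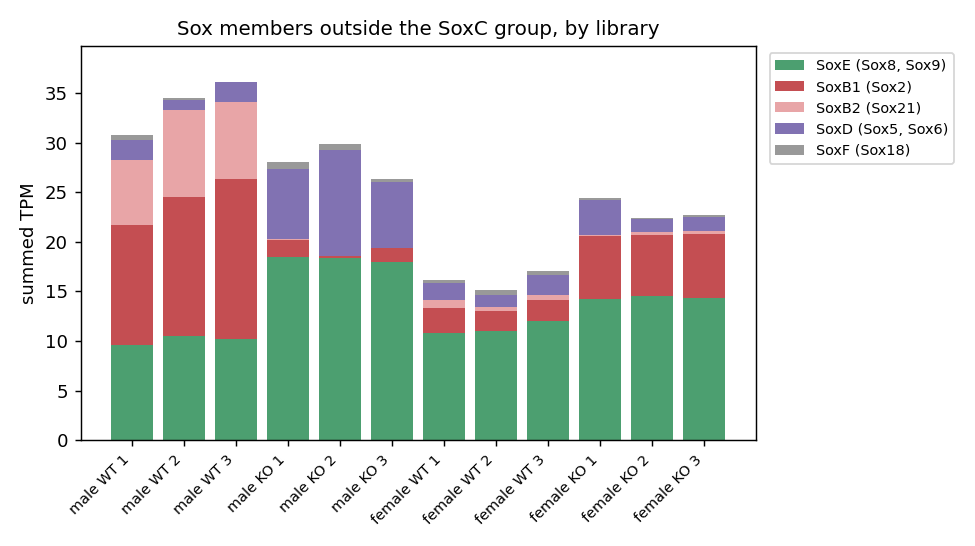
Summed TPM of the listed members outside SoxC in each of the 12 libraries, stacked by Sox group. Sox2 and Sox21 (14.1 and 7.69 TPM on average) fill most of the bars in male WT, and Sox8 with Sox9 (18.2 TPM) and Sox5 with Sox6 (8.15 TPM) nearly all of them in male KO.

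Sox2, the SoxB1 factor that works with Pou5f1 in pluripotent cells and is also kept on in neural progenitors, showed opposite differences between KO and WT in the 2 sexes. Its levels were 12.03, 14.1 and 16.2 TPM in male WT and 1.72, 0.265 and 1.43 TPM in male KO libraries. Female libraries held 2.45, 2.05 and 2.10 TPM in WT and 6.41, 6.12 and 6.40 TPM in KO libraries. The male KO libraries all lay below the male WT ones and the female KO libraries all above the female WT ones. The order was male WT, female KO, female WT and male KO, and neighbours in it did not overlap. On the log2(TPM+1) scale the difference between KO and WT was -2.88 in males (SE 0.29) and 1.19 in females (SE 0.11). As ratios of the mean TPM, without the added 1, it was 12.4-fold lower in male KO and 2.87-fold higher in female KO; folds below are such ratios and log2 differences are on the log2(TPM+1) scale. Among WT libraries Sox2 was 6.39-fold higher in males (log2 difference 2.23, SE 0.13), and among KO libraries 5.54-fold higher in females (log2 difference of males to females -1.85, SE 0.29). The libraries of KO and WT lay apart in both sexes and in opposite directions for 4.22% of all tested genes, 528 of 12504.

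Sox21, the SoxB2 factor, which shares its binding sites with Sox2 and represses where Sox2 activates, was also highest in male WT. It stood at 6.63, 8.70 and 7.75 TPM in male WT, against 0.0725, 0 and 0.0557 TPM in male KO. In females the WT libraries held 0.828, 0.403 and 0.531 TPM and the KO libraries 0.0778, 0.326 and 0.366 TPM. Only the male WT libraries exceeded 1 TPM, and Sox21 passed the filter on low values through them alone. The groups did not overlap, in the order male WT, female WT, female KO and male KO. The log2 difference between KO and WT was -3.05 in males (SE 0.16) and -0.34 in females (SE 0.21). With a pseudocount of 0.1 in place of 1 it became -5.80 in males and -1.02 in females, since the added 1 exceeds most of these values. In the KO libraries, unlike Sox2, Sox21 was low in both sexes, at means of 0.0427 TPM in males and 0.257 TPM in females.

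Among other cell types, the epithelial, neural progenitor, endothelial and pluripotency marker sums were lower in male KO than male WT, without overlap. Sox2 and Sox21 were lower in male KO too. Of all tested genes, 40.0% did not overlap between these 2 groups. The summed TPM of the 6 epithelial genes ran from 9.60 to 10.6 in male WT, from 0.603 to 1.26 in male KO, from 6.35 to 7.46 in female WT and from 1.80 to 2.25 in female KO libraries. Krt18 and Epcam carried most of it. Krt18 had a mean of 7.47 ± 0.985 TPM in male WT against 0.362 ± 0.203 TPM in male KO (SD, n = 3 each), and Krt5 was at 0 in 11 of the 12 libraries. In females the epithelial, neural progenitor and endothelial sums were all lower in KO than in WT libraries, without overlap. Sox2 was higher in female KO, and Sox21, under 1 TPM in both female groups, was lower. Of the 6 neural progenitor markers only Nes, an intermediate filament gene that many cultured cells also express, reached 1 TPM. Their sum ran from 50.6 to 54.2 TPM in male WT and from 37.0 to 40.35 TPM in male KO libraries. Female WT libraries held 74.2 to 76.6 TPM and female KO ones 43.7 to 51.6 TPM. The endothelial sum ran from 1.89 to 2.19 TPM in male WT and from 1.45 to 1.63 TPM in male KO. In females it ran from 4.76 to 5.95 TPM in WT and from 1.98 to 2.37 TPM in KO. Of its 7 markers only Kdr reached 1 TPM. By limma it was not called between male KO and WT (adjusted p = 0.614) and was lower in female KO (adjusted p = 0.00368). The 5 pluripotency markers summed to at most 1.48 TPM in any library. In males their sum ran from 0.732 to 0.949 TPM in WT and from 0.401 to 0.709 TPM in KO libraries. Nanog among them went the other way, from a mean of 0.42 TPM in male WT to 0.514 TPM in male KO. In females the sums overlapped. The part of such cells in the Sox2 and Sox21 levels was not tested.

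The known Sox2 targets of pluripotent cells were nearly absent. Of the 8 listed (Pou5f1, Nanog, Fgf4, Utf1, Lefty1, Fbxo15, Zfp42 and Lin28a), only Lefty1, a secreted inhibitor of Nodal signalling, averaged 1 TPM or more across all libraries. It was at 2.26 ± 0.336 TPM in male KO and 0.892 ± 0.102 TPM in female KO libraries (SD, n = 3 each; log2 difference 0.78, SE 0.16, limma, Benjamini-Hochberg adjusted p = 0.0201). That call was lost in 5 of 13 alternative settings, the replicate block among them (adjusted p = 0.0652). It was not called between KO and WT in either sex.

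The genes whose levels ran most like those of Sox21 over the 12 libraries were Igfbp3, Fst and Lgr6, which encode an insulin-like growth factor binding protein, the activin antagonist follistatin and a receptor for R-spondins (Pearson r of log2(TPM+1) 0.977, 0.977 and 0.976 among 12464 genes). Igfbp3 was at 38.4 ± 1.09 TPM in male WT, 8.23 ± 1.11 TPM in male KO, 10.2 ± 0.892 in female WT and 7.87 ± 1.84 in female KO libraries (SD, n = 3 each). For Sox2 they were Ifi27l2b, Foxl1, a forkhead factor of mesenchyme, and the water channel gene Aqp1 (r of 0.968, 0.960 and 0.959). Aqp1 had the same order of groups as Sox2, at 55.5 ± 2.51 TPM in male WT, 41.3 ± 2.43 in female KO, 18.0 ± 0.577 in female WT and 12.2 ± 0.519 in male KO (SD, n = 3 each). These genes were picked as the highest of all, and the 12 libraries fall into 4 groups, so r describes the pattern of the group means.

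The SoxC factors Sox4, Sox11 and Sox12, which support the survival and growth of progenitors in the embryo, were all present in every library, and Sox4 and Sox12 were the most abundant members. Sox4 was at 101, 106 and 105 TPM in male WT and 106, 123 and 105 TPM in male KO libraries. The female WT libraries held 148.5, 166 and 145 TPM and the female KO ones 119, 110.4 and 121.5 TPM. The 3 female WT libraries lay above the other 9. The female KO libraries lay above the male WT ones, and male KO overlapped both. The log2 difference between KO and WT was 0.10 in males (SE 0.067) and -0.39 in females (SE 0.063), and that between WT males and females was -0.56 (SE 0.057).

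Sox11 differed by sex in both genotypes. It was at 7.13, 8.24 and 8.41 TPM in male WT and 7.25, 7.91 and 7.95 TPM in male KO libraries. Female WT libraries were at 13.6, 15.0 and 14.5 TPM and female KO ones at 15.4, 16.2 and 15.7 TPM. The male groups overlapped and lay below all 6 female libraries. Female libraries had 1.82-fold the male mean among WT (log2 difference of males to females -0.79, SE 0.094) and 2.05-fold among KO (-0.95, SE 0.082). Between KO and WT the log2 difference was -0.035 in males (SE 0.10) and 0.12 in females (SE 0.070).

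Sox12 had the narrowest range of the 8 members over 1 TPM. It was at 23.7, 27.9 and 24.6 TPM in male WT and 30.7, 29.9 and 31.2 TPM in male KO libraries. Female libraries held 26.6, 28.5 and 25.8 TPM in WT and 27.0, 24.8 and 26.6 TPM in KO. Male KO lay above the other groups, which overlapped, and exceeded male WT by 0.26 on the log2 scale (SE 0.076).

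Of 6 genes linked to SoxC factors in neuronal and mesenchymal cells, 5 were tested. Stmn2, a regulator of microtubules in neurons, was at 25.2, 25.3 and 22.8 TPM in female WT libraries and between 6.66 and 9.34 TPM in the other 9. The female WT libraries were those in which Sox4 was highest too, and also those with the highest sums of the neural progenitor, muscle and endothelial marker lists. The 6 neural progenitor markers summed to 74.2 to 76.6 TPM there and to 37.0 to 54.2 TPM elsewhere, nearly all of it Nes. Nes fell in KO of both sexes, by limma (log2 difference -0.71, SE 0.069, adjusted p = 0.00166 in females and -0.42, SE 0.059, adjusted p = 0.00310 in males). Its KO effect was not called different between the sexes (adjusted p = 0.0671, limma). The 5 muscle markers, of which Des alone reached 1 TPM, summed to 5.74 to 6.64 TPM in female WT and to at most 0.362 TPM elsewhere. The 7 endothelial ones summed to 4.76 to 5.95 TPM in female WT and at most 2.37 TPM elsewhere. The part of such cells in these levels was not tested. Stmn2 fell in female KO (log2 difference -1.496, SE 0.096, adjusted p = 2.9e-04, limma with Benjamini-Hochberg adjustment). Its relative Stmn1 rose in male KO by 0.31 (SE 0.035, adjusted p = 0.00119, the same test), as did the neuronal tubulin gene Tubb3 by 0.34 (SE 0.088, adjusted p = 0.0350), a call kept in 7 of 14 alternative settings and lost with the replicate block (adjusted p = 0.0716). Between the WT groups Stmn2, Tubb3 and Stmn1 were all lower in males (log2 differences -1.49, -0.67 and -0.16, with limma's adjusted p = 2.25e-04, 0.00242 and 0.0271). That of Stmn1 was lost with the block (adjusted p = 0.0643). Between the KO groups only Stmn1 was called, 0.11 higher in males (adjusted p = 0.0379 by limma), in 4 of 14 settings and not with the block (adjusted p = 0.119). Tead2 and Ezh2 were not called in any of the 5 comparisons, and the 5 tested genes had a median log2 difference between KO and WT of 0.096 for males and 0.040 for females, beside -0.015 and -0.023 over all tested genes.

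Sox5, a SoxD factor without a transactivation domain of its own that helps Sox9 on cartilage genes, was highest in male KO. It was at 1.92, 1.084 and 1.94 TPM in male WT and 7.0, 10.7 and 6.54 TPM in male KO libraries. In females it was at 1.69, 1.23 and 1.93 TPM in WT and 3.46, 1.25 and 1.36 TPM in KO, where replicate 1 stood above the other libraries. The male KO libraries lay above the remaining 9, and the other groups overlapped. The mean was 4.90-fold higher in male KO than in male WT (log2 difference 1.77, SE 0.22) and 4.0-fold higher than in female KO (1.63, SE 0.31), whereas female KO and WT differed by 0.14 (SE 0.29). Its partner Sox6 did not exceed 0.154 TPM and was listed at 0 in 5 libraries, so that Sox5 held nearly all of the TPM of this pair.

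Genes that ran most like Sox5 were St6gal1, a sialyltransferase, Zfp783 and Them6 (r of 0.963, 0.963 and 0.947 over the 12 libraries). St6gal1 was at 14.2 ± 1.33 TPM in male KO and between 3.85 and 4.33 TPM on average in the other 3 groups (n = 3 each).

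Sox9, the SoxE factor that directs chondrocyte fate, was higher in KO than in WT in both sexes. It was at 8.74, 10.02 and 9.53 TPM in male WT and 15.2, 16.7 and 16.0 TPM in male KO libraries. The female libraries held 8.58, 9.29 and 9.89 TPM in WT and 12.7, 11.9 and 11.2 TPM in KO. The WT groups overlapped, all female KO libraries lay above them, and all male KO libraries lay above the female KO ones. The KO mean was 1.69-fold the WT mean in males (log2 difference 0.70, SE 0.087) and 1.29-fold in females (0.34, SE 0.090).

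Sox8, a SoxE factor with roles close to those of Sox9 in the testis and neural crest, was low in male WT. It was at 0.893, 0.490 and 0.651 TPM in male WT and 3.2, 1.65 and 1.96 TPM in male KO libraries. In females it was at 2.26, 1.68 and 2.14 TPM in WT and 1.51, 2.63 and 3.13 TPM in KO. All male WT libraries lay below the others, which overlapped. The log2 difference between KO and WT was 0.94 in males (SE 0.23) and 0.15 in females (SE 0.22). Sox8 and Sox9 together came to 10.1 ± 0.442 TPM in male WT, 18.2 ± 0.268 in male KO, 11.3 ± 0.652 in female WT and 14.4 ± 0.180 in female KO libraries (SD, n = 3 each).

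Cartilage genes under the control of Sox9, Sox5 and Sox6 were a list of 18, of which 9 were tested. Col2a1, the cartilage collagen gene with well-studied Sox9 enhancers, was at 1.61, 1.74 and 1.64 TPM in male WT and 21.4, 22.01 and 17.7 TPM in male KO libraries. In females it was at 8.59, 7.26 and 11.3 TPM in WT and 20.9, 22.5 and 24.8 TPM in KO. It rose by 3.00 in male KO (SE 0.12, adjusted p = 1.33e-05) and by 1.26 in female KO (SE 0.15, adjusted p = 0.00387) on the log2 scale, by limma with Benjamini-Hochberg adjustment. Acan, the proteoglycan aggrecan, rose in both sexes as well, by 1.52 in males (SE 0.15, adjusted p = 5.73e-04) and 1.86 in females (SE 0.13, adjusted p = 3.59e-04, limma). Its means were 4.88 ± 0.805 TPM in male WT, 15.8 ± 2.27 in male KO, 2.32 ± 0.379 in female WT and 11.02 ± 0.818 in female KO libraries (SD, n = 3 each).

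The rest of the list did not move in the same way. Col11a1, a fibrillar collagen of cartilage, rose in male KO by 0.63 (SE 0.075, adjusted p = 0.00158, limma with Benjamini-Hochberg adjustment) from a male WT level below that of both female groups. Col27a1 fell in male KO (-0.55, SE 0.12, adjusted p = 0.0208, limma), a call lost in 4 of 14 alternative settings, and Wwp2, a ubiquitin ligase gene that hosts a cartilage microRNA, fell in female KO (-0.25, SE 0.059, adjusted p = 0.0402, limma), a call lost in 9 of 14 settings and with the block (adjusted p = 0.0939). Of the 9 tested, 3 rose and 1 fell in male KO, where 21.6% of all genes were called, and 2 rose and 1 fell in female KO libraries, where 11.5% were, with medians of -0.069 and -0.043 beside -0.015 and -0.023 over all tested genes. Between the sexes, male WT was lower than female WT for Col2a1 (-1.90, adjusted p = 6.46e-04, limma) and Col11a1 (-0.64, adjusted p = 0.00343, limma). Sox9 and Sox5 overlapped between these groups and Sox8 was lower in male WT, and their part in these differences was not tested. Acan was higher in males among WT (0.82, adjusted p = 0.0186, limma) and among KO (0.48, adjusted p = 0.0337), and both calls were lost with the block (adjusted p = 0.0696 and 0.0793). Col27a1 was lower in male than in female KO libraries (-0.60, adjusted p = 0.00479, limma).

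**Figure D3:**
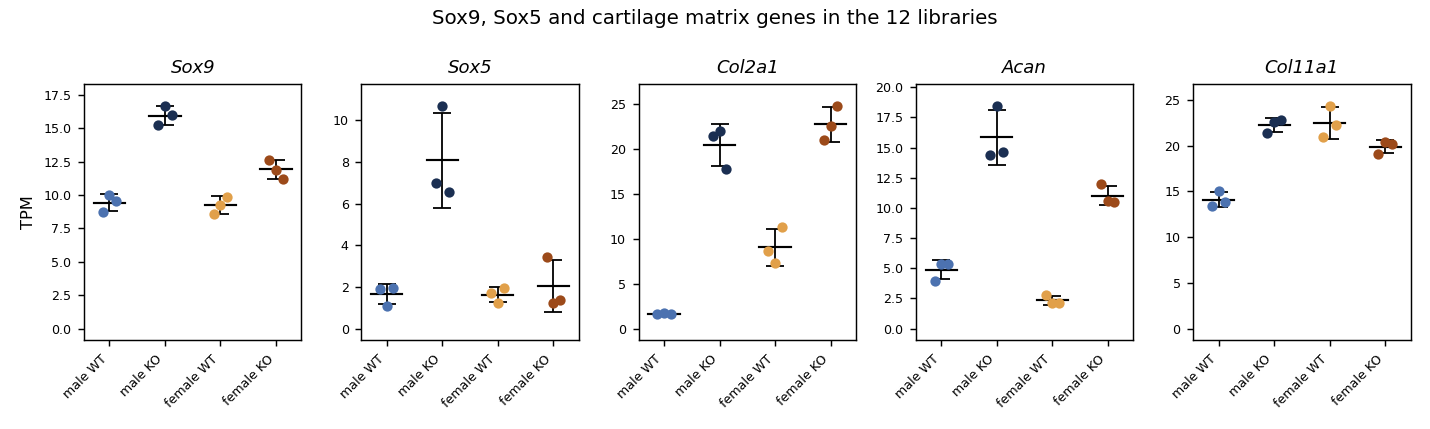
TPM (vertical axis, linear, a separate scale for each gene) of Sox9, Sox5 and the cartilage matrix genes Col2a1, Acan and Col11a1 in the 3 libraries of each group; points are libraries, the long bar is the mean and the error bar the SD. Col2a1 goes from a mean of 1.66 to 20.4 TPM in males and from 9.04 to 22.7 TPM in females, and Acan lies above WT in both KO groups, while Sox5 is raised in male KO alone.

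The chondrocyte marker list, which holds Col2a1 and Acan, summed to 7.07 to 11.97 TPM in male WT, 33.9 to 44.3 in male KO, 11.6 to 16.3 in female WT and 35.8 to 37.7 in female KO libraries. Only 3 of its 9 genes, Col2a1, Acan and Col11a2, had group means of at least 1 TPM. Snorc was at 0 in all 12 libraries and Col9a1 in 11 of them, Cnmd was at 0 in 10, and Hapln1, the link protein of cartilage matrix, did not exceed 0.566 TPM. The part of chondrocytes in the Sox9 and Sox5 levels was not tested.

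Among 11 genes of the neural crest and its glia that answer to SoxE factors, 4 were tested. Ret, the receptor of glial-derived neurotrophic factor, was at 20.8, 18.0 and 20.1 TPM in female KO libraries and between 3.92 and 6.91 TPM in the other 9. It rose by 1.90 in female KO (SE 0.11, adjusted p = 2.01e-04, limma with Benjamini-Hochberg adjustment). Pmp22, a myelin protein gene that fibroblasts also express, rose in both sexes, by 0.54 in males (SE 0.091, adjusted p = 0.00676) and 0.59 in females (SE 0.092, adjusted p = 0.0103, limma). Mitf, the melanocyte master factor, which is also in use elsewhere, rose in male KO by 0.77 (SE 0.17, adjusted p = 0.0184, limma), lost in 3 of 13 settings. Between the sexes Pmp22 was higher in males among WT and among KO (0.81 and 0.76, adjusted p = 0.00120 and 0.00268, limma), and in KO libraries Ret was lower (-1.42, adjusted p = 8.54e-05) and Mbp higher in males (0.68, adjusted p = 0.0469, limma), the latter in 3 of 13 settings and not with the block (adjusted p = 0.0869). Sox10, the third SoxE gene and the one most used in neural crest glia, was at 0.0404 TPM in 1 library and at 0 in the other 11, and the 6 Schwann cell and neural crest markers summed to at most 3.16 TPM.

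Sox18, a SoxF factor of blood and lymph vessel endothelium, was near the lower end of the measured range. It was at 0.535, 0.161 and 0 TPM in male WT and 0.696, 0.527 and 0.292 TPM in male KO libraries. In females it was at 0.338, 0.529 and 0.463 TPM in WT and 0.272, 0.143 and 0.160 TPM in KO. The male groups overlapped, and the female KO libraries lay below the female WT ones (log2 difference -0.28, SE 0.069, in the fit of all 22401 genes above 0). Of the 7 endothelial markers only Kdr, a receptor of vascular endothelial growth factor, reached 1 TPM, Cldn5 was at 0 in 11 libraries, and the list summed to between 1.45 and 5.95 TPM. Of 8 SoxF targets in endothelium 3 were tested, all of them also expressed by other cells. The adhesion gene Vcam1 rose in both sexes, by 0.47 in males (SE 0.073, adjusted p = 0.00485) and 1.062 in females (SE 0.064, adjusted p = 2.41e-04, limma with Benjamini-Hochberg adjustment). In male KO the orphan receptor gene Nr2f2 fell (-0.51, SE 0.085, adjusted p = 0.00654, limma). Notch1 rose there by 0.56 (SE 0.15, adjusted p = 0.0341, limma), a call lost in 8 of 14 settings and with the block (adjusted p = 0.0510). Between the KO groups Vcam1 was lower in males (-0.77, adjusted p = 2.56e-04, limma), as was Nr2f2 (-0.19, adjusted p = 0.0479), the latter in 2 of 14 settings and not with the block (adjusted p = 0.113).

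Set beside all genes, 6 of the 8 members tested passed limma's threshold between male KO and WT, where 21.6% of all genes passed. Sox5, Sox8, Sox9 and Sox12 were higher in KO, as were 10.7% of all genes, and Sox2 and Sox21 lower, as were 10.9%. The libraries of 6 of the 8 did not overlap, beside 40.0% of all genes. In females 2 passed, Sox2, which was higher in KO (5.63% of all genes), and Sox4, which was lower (5.84%), beside 11.5% of all genes in either direction, and 5 did not overlap, beside 33.6%. Between the WT groups 5 passed, Sox2 and Sox21 higher in males (6.26% of all genes) and Sox4, Sox8 and Sox11 lower (6.56%), beside 12.8% in either direction, and 5 did not overlap, beside 33.4%. Between the KO groups 5 passed, Sox5, Sox9 and Sox12 higher in males (8.17% of all genes) and Sox2 and Sox11 lower (8.39%), beside 16.6% in either direction, and 6 did not overlap, beside 35.4%. The difference between the sexes in the KO effect passed for 4 (Sox2, Sox21, Sox4 and Sox5), beside 13.0%. Of the 2 members under the filter, Sox6 and Sox18, neither passed in limma's fit without it in any of the 5 comparisons, in which 10.4% of all genes passed for males, 5.03% for females, 5.69% between the WT groups, 7.52% between the KO groups and 6.98% for the difference between the sexes. As the list was written with these values known, nothing is read from these counts, and Sox21, which is in those of males, of the WT groups and of the difference between the sexes, was tested only because of its male WT level. The calls on Sox12 and Sox8 were the least stable: between male KO and WT, that of Sox12 held in 6 of 14 alternative settings and that of Sox8 in 8 of 13. The call on Sox12 was lost with the replicate block there and between the KO groups, as were those on Sox4 between female KO and WT, Sox8 between the WT groups and Sox9 between the KO groups.

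**Figure D4:**
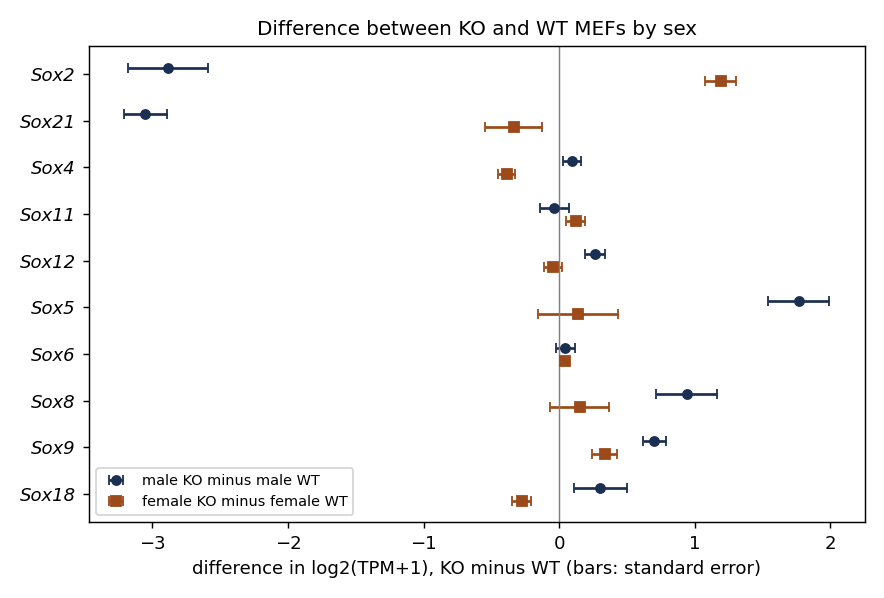
Difference between KO and WT (horizontal axis, log2(TPM+1), KO minus WT) for the 10 Sox genes in males (circles) and females (squares); bars are the standard error of the limma fit, which for Sox6 and Sox18 is the fit without a filter on low values. Sox2 lies on opposite sides of 0 in males (-2.88) and females (1.19), Sox21 and Sox5 lie far from 0 in males (-3.05 and 1.77), and the remaining values within 1 of it.

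The other 10 Sox genes of the table, with Sry counted among them, were low. None had a mean of 1 TPM over the 12 libraries, though Sox13 reached 1.27 TPM on average in female WT, and Sox14 and Sox17 were at 0 in all 12 libraries. The highest was Sox13, the third SoxD gene, which ran from 0.203 to 1.66 TPM. Its female WT libraries (0.678 to 1.66 TPM) lay above the male KO ones (0.203 to 0.66 TPM), and the other pairs of groups overlapped. Some members share their place on the genome with another annotated gene, and since the library preparation is not stated to keep the strand, reads of the 2 strands cannot be told apart there. Gm4675 lies antisense to exons of Sox21, Gm26735 to exons of Sox4, Sox5os1 to exons of Sox5 and 2810468N07Rik to exons of Sox8, and Sox2 lies inside Sox2ot on the same strand without sharing exons with it. These neighbours have no row in the deposited expression table, so their levels could not be read.

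Of 14 listed cofactors and regulators of Sox proteins, 11 were tested. In male KO Trps1, a GATA-type repressor active in cartilage, rose by 0.51 (SE 0.10, adjusted p = 0.0126, limma with Benjamini-Hochberg adjustment) and the corepressor Ctbp2 fell (-0.29, SE 0.059, adjusted p = 0.0142, limma). In females 0 of the 11 passed limma's adjusted threshold, beside 11.5% of all genes, and 2 had an unadjusted p under 0.05. Trps1 was higher in males among WT (0.38, adjusted p = 0.0451, limma; lost with the block, adjusted p = 0.0828) and among KO libraries (1.21, adjusted p = 4.05e-04, limma), and Ctbp2 lower in males among KO (-0.20, adjusted p = 0.0462, limma; lost with the block, adjusted p = 0.0949). The widely used partners Ctnnb1, Ep300 and Crebbp were not called in any of the 5 comparisons.

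Of 18 other proteins with an HMG box, 16 were tested. In male KO the lymphoid factor gene Tox rose by 0.76 (SE 0.17, adjusted p = 0.0201), and the Wnt effectors Tcf7l2 and Tcf7 fell (-0.52, SE 0.11, adjusted p = 0.0172, and -0.47, SE 0.092, adjusted p = 0.0123, both by limma). These calls were lost in 3 of 13, 4 of 14 and 1 of 14 alternative settings. In female KO Tcf7 fell (-0.67, SE 0.10, adjusted p = 0.00997, limma), while Bbx and Hmgb3 rose by 0.40 and 0.29 (adjusted p = 0.0497 and 0.0437, limma), in 5 and 7 of 14 settings, Bbx not with the block (adjusted p = 0.0784). Between the sexes Lef1 was lower in males among WT (-0.50, adjusted p = 0.0244, limma; lost with the block, adjusted p = 0.0761) and among KO (-0.97, adjusted p = 0.0184, limma; lost in 6 of 14 settings), where Tox (0.96, adjusted p = 0.0102) and Ubtf (0.22, adjusted p = 0.0117, limma; 0.0533 with the block) were higher and Hmgb3 lower (-0.34, adjusted p = 0.0206, limma; 0.0644 with the block). The KO effect differed between the sexes for 0 of the 16 by limma's adjusted threshold, beside 13.0% of all genes, and 4 had an unadjusted p under 0.05.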

How the data were processed

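Polyadenylated RNA of 12 MEF cultures was sequenced, and the authors deposited gene-level TPM made with Salmon against GRCm38 (version 1.10.1 per the submitters' processing notes). TPM sum to 1000000 per library and keep no read totals, so depth and counting error are unknown. Symbols and positions came from GENCODE M21, to which 99.2% of the identifiers matched.

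As TPM are not counts, limma 3.58.1 (R 4.3.3) was fitted to log2(TPM+1), with its mean-variance trend, for the 12504 genes averaging 1 TPM or more in the 12 libraries, at a Benjamini-Hochberg adjusted p of 0.05. Each comparison used its 6 libraries, and the interaction all 12. Sox6 and Sox18 come from a fit without the filter (22401 genes). The code was tested on simulated data. The members and lists were chosen with earlier results of these data known. Named were the members, up to 4 called genes per list and comparison, markers, the genes most like the 3 widest-ranging members, overlapping genes and Sirt3; Tead2, Ezh2, Ctnnb1, Ep300, Crebbp and single markers were named after their values were seen. Promoters came from RefSeq.

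Alternatives were a pseudocount of 0.1, no filter, a minimum mean of 5 TPM, scaling by median of ratios or by quantiles, no trend, a joint fit of all 12 libraries, a block for the replicate number, and leaving out each library.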

Additional observations from a re-analysis of the deposited data

Results flagged for a closer look

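The KO effect differed between the sexes in the following genes. Sox2 was lower in all male KO libraries than in all male WT ones and higher in all female KO than in all female WT libraries, and the male log2 difference minus the female one was -4.08; it is among the members that passed limma's threshold for this difference, but it was chosen with its values known, so the value is a description.

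For the genes around the members the difference itself was tested over all 12 libraries, by limma with Benjamini-Hochberg adjustment, and is given as the male minus the female log2 difference between KO and WT. Among the cartilage genes it was 1.74 for Col2a1 (adjusted p = 1.06e-04), 0.79 for Col11a1 (adjusted p = 2.62e-04) and -0.69 for Col27a1 (adjusted p = 0.00879). Among the SoxC-linked genes it was 1.41 for Stmn2 (adjusted p = 1.05e-04), 0.53 for Tubb3 (adjusted p = 0.0152) and 0.27 for Stmn1 (adjusted p = 0.00122). It was -0.59 for Vcam1 (adjusted p = 0.00172), -1.80 for Ret (adjusted p = 7.2e-06) and 1.003 for Mbp (adjusted p = 0.0190). Among the cofactors it was 0.83 for Trps1 (adjusted p = 0.00161) and 0.48 for Arid5b (adjusted p = 0.0455). That of Arid5b held in 7 of 19 alternative settings, and the other tested ones held in every setting run.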

How the results depend on the processing

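No called value changed its sign under any alternative run. With a mean of at least 5 TPM fewer members were tested, and 3 passed between male KO and WT, 3 between the WT groups, 3 between the KO groups and 2 in the interaction. Without the filter 1 member passed in females. With a pseudocount of 0.1 the differences of low members were larger, as for Sox21 above.

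Leaving out 1 library at a time gave 1813 to 2318 genes in males, 774 to 835 in females (1434 with all libraries), 1037 to 1243 between the WT groups (1603), 1328 to 1824 between the KO groups (2070) and 1353 to 1559 in the interaction. The members called were 4 to 5, 2, 4 to 5, 3 to 4 and 4 to 5 in these comparisons, and the listed genes 10 to 15 (16), 7 to 8, 5 to 7 (9), 7 to 10 (15) and 10 to 12, where fewer samples enter each fit. Without male KO replicate 2, whose Sox2 was 0.265 TPM, the Sox2 difference between the sexes was -3.74.

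The labels do not say that equal replicate numbers mark a shared batch, and deviations of same-numbered libraries correlated by -0.0571 to 0.0779. With the replicate block, 670 of 12504 genes and 1 of the 8 tested members passed in females. Between the KO groups 1397 genes, 3 members and 7 listed genes passed, and between the WT groups 1114 genes and 5 listed genes. The cause was not tested. TPM without read totals give no counting error, and levels under 1 TPM are the least certain.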
